A study of Homo sapiens with 4 samples.

Results

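The genes described here are 10 components of TRAIL, FAS and TNF death receptor signalling, measured in A549 cells treated with embelin. They are the ligand TNFSF10 (TRAIL), its receptors TNFRSF10A, TNFRSF10B, TNFRSF10C and TNFRSF10D, the receptors FAS and TNFRSF1A, the adaptor FADD, the inhibitor CFLAR and the kinase RIPK1. Every array probe carrying the name of a member, or a RefSeq transcript of it, was taken, whatever its signal. This gave 14 of the 50238 probes on the array, for 10 of the 19614 genes that could be named, with 2 probes each for TNFRSF10B, TNFRSF1A, FADD and CFLAR and 1 probe for each other gene. Of these, 13 passed the filter on low signal, and the probe for TNFRSF10D did not.

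A549 is an established human lung adenocarcinoma line, and embelin is a plant benzoquinone known as an inhibitor of XIAP, a protein that blocks caspases. Gene expression was compared between 2 untreated control samples and 2 samples given embelin (15 µM) for 4 h, to find the pathways behind cell death caused by embelin. Both groups had been moved to medium with 2% serum 12 h earlier, so that the low serum is shared by controls and treated cells. RNA of each sample was labelled with Cy3 and hybridized to 1 array, and all 4 arrays lay on 1 slide. The labels do not say that the replicates of a group came from separate cultures, and the p-values measure only the spread between these samples. All values are from 1 cell line, and they are of RNA, not of receptor protein at the cell surface.

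Death ligands of the TNF family bind receptors that carry a death domain in their cytoplasmic tail. The ligated receptor recruits the adaptor FADD, which brings in caspase-8 and caspase-10, and CFLAR (c-FLIP) competes with these caspases for FADD. TNFRSF10A (DR4) and TNFRSF10B (DR5) pass on the TRAIL signal, whereas TNFRSF10C and TNFRSF10D bind TRAIL without a working death domain and act as decoys. TNFRSF1A (TNFR1) first builds a complex with TRADD, TRAFs and RIPK1 that leads to NF-kB activation, and only under some conditions a complex that kills the cell. Carcinoma cells such as A549 commonly carry TRAIL receptors, and the genes of these receptors and of TRAIL are known to respond to stress and interferon.

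Of the sequences behind these measurements, 3 probes are shown, for the receptor TNFRSF1A, the adaptor FADD and the inhibitor CFLAR, since each of these genes has 2 probes that differ in spread or sign. Each is the deposited probe of 60 bases, 5′ to 3′.
TNFRSF1A probe P364363: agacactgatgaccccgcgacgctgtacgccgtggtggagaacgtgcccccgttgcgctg
FADD probe P278637: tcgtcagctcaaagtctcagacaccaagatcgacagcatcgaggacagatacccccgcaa
CFLAR probe P209394: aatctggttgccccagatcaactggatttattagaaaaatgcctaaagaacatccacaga

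The promoter of TNFSF10 is shown because TNFSF10 was the only member called after adjustment for multiple tests. The 250 bases before its start site were read from RefSeq (build GRCh38.p14, chr3:172523431-172523680, minus strand).
TNFSF10 promoter: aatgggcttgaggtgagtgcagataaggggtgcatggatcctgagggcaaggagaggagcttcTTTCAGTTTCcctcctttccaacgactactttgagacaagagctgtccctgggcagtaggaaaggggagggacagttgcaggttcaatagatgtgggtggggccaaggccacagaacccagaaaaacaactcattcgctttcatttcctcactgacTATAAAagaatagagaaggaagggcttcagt
The capitals mark 2 matches to motifs searched on both strands. The first, at -187 from the start, is the interferon response element (GAAA, any 2 bases, GAAA) read on the opposite strand, which 3.02% of 35116 RefSeq promoters of the same length hold. The second, at -31, is TATAAA, the TATA box, which 10.72% hold. No match was found there for the FOXO motif GTAAACA, the GAS motif TTCNNNGAA, the NF-kB motif (GGG, any 2 bases, TTTCC), the AP-1 motif (TGA and TCA with 1 base between), the CHOP and ATF4 motif TGATGNAA, the hypoxia motif ACGTG, the GC box GGGCGG or the CCAAT box. A match is a description of the letters and not of a bound site.

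Signals are given as log2 of the scanner intensity after the 75th percentile of each array was set to the same value. Each array had 51538 spots that were not controls, and none was saturated. Spots marked as outliers numbered 47 on control 1, 296 on control 2, 743 on embelin 1 and 87 on embelin 2. The share of probes well above background was 66.7% on control 1 and 66.4% on embelin 2. It was 50.3% on control 2 and 51.2% on embelin 1. Control 2 and embelin 1 are here called the arrays of higher background, control 1 and embelin 2 those of lower background. These names stand for that share only, and background intensity itself was not compared. Before the shift the 75th percentile was also lower on control 2 (587) and embelin 1 (604) than on control 1 (716) and embelin 2 (736). The controls lay at slide positions 4 and 1 and the embelin arrays at 2 and 3, so that a linear trend along the slide is balanced between the groups, whereas a difference between its ends and its middle cannot be told apart from treatment. Pearson's r over 25631 probes was 0.972 between the controls, 0.971 between the embelin arrays and 0.924 to 0.966 between groups. Epithelial and A549 markers were present as the label says, with 17 of 18 probes well above background on all 4 arrays. Of the markers of alveolar type II cells (SFTPC, SFTPB, NKX2-1) 0 of 5 probes were well above background on all 4 arrays. Both SFTPC probes and the NKX2-1 probe P184692 were so on 3 arrays. The defining markers of endothelium (PECAM1, CDH5) reached this level on every array with 0 of 4 probes, those of red cells (HBB) with 0 of 1, those of lymphocytes and myeloid cells with 1 of 6 (CD14) and those of fibroblasts with 1 of 7. The summed signal of the fibroblast list was 199.7 and 208.0 in the controls and 1020 and 532 in the embelin samples. Part of the 1020 is the COL3A1 probe P142533, with log2 8.93 on embelin 1 and 2.84 on embelin 2. The alveolar type II list summed to 139.3 and 144.7 in the controls and 514.6 and 199.6 with embelin. In it the NKX2-1 probe P61490 read 8.49 on embelin 1 and 4.00 on embelin 2. Within the fibroblast list the 3 COL1A1 probes read higher with embelin. The one well above background on all 4 arrays had adjusted p = 0.0528, and the others (0.0397 and 0.0439) were well above background on 1 of 2 controls and so passed the filter only through the embelin group. The 3 COL3A1 probes and DCN were not well above background on both arrays of either group, and the part of these signals in the results was not tested.

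Of the 13 member probes tested, 1 was called after Benjamini-Hochberg adjustment over all 26145 probes tested by limma, and it was lower (TNFSF10). Among all probes tested 1.51% were called, 1.14% higher and 0.363% lower. The same probe was the only member past the threshold of the study's methods, at least 2-fold with unadjusted p under 0.05, which 8.14% of all probes passed, 4.71% higher and 3.43% lower. At unadjusted p under 0.05 alone, a rule added after the data were seen, 3 member probes were higher and 4 were lower, where 19.1% of all probes passed, 9.36% higher and 9.77% lower. In 11 of the 13 probes the arrays of the groups did not overlap, 6 with embelin higher and 5 with embelin lower, against 51.1% of all probes with a value on every array (24% higher and 27.1% lower). The median log2 difference was 0.07 over the 13 member probes and -0.01 over all probes tested. With 2 samples in each group, 0.333 is the smallest p that an exact permutation test allows, so it was not run gene by gene.

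**Figure D1:**
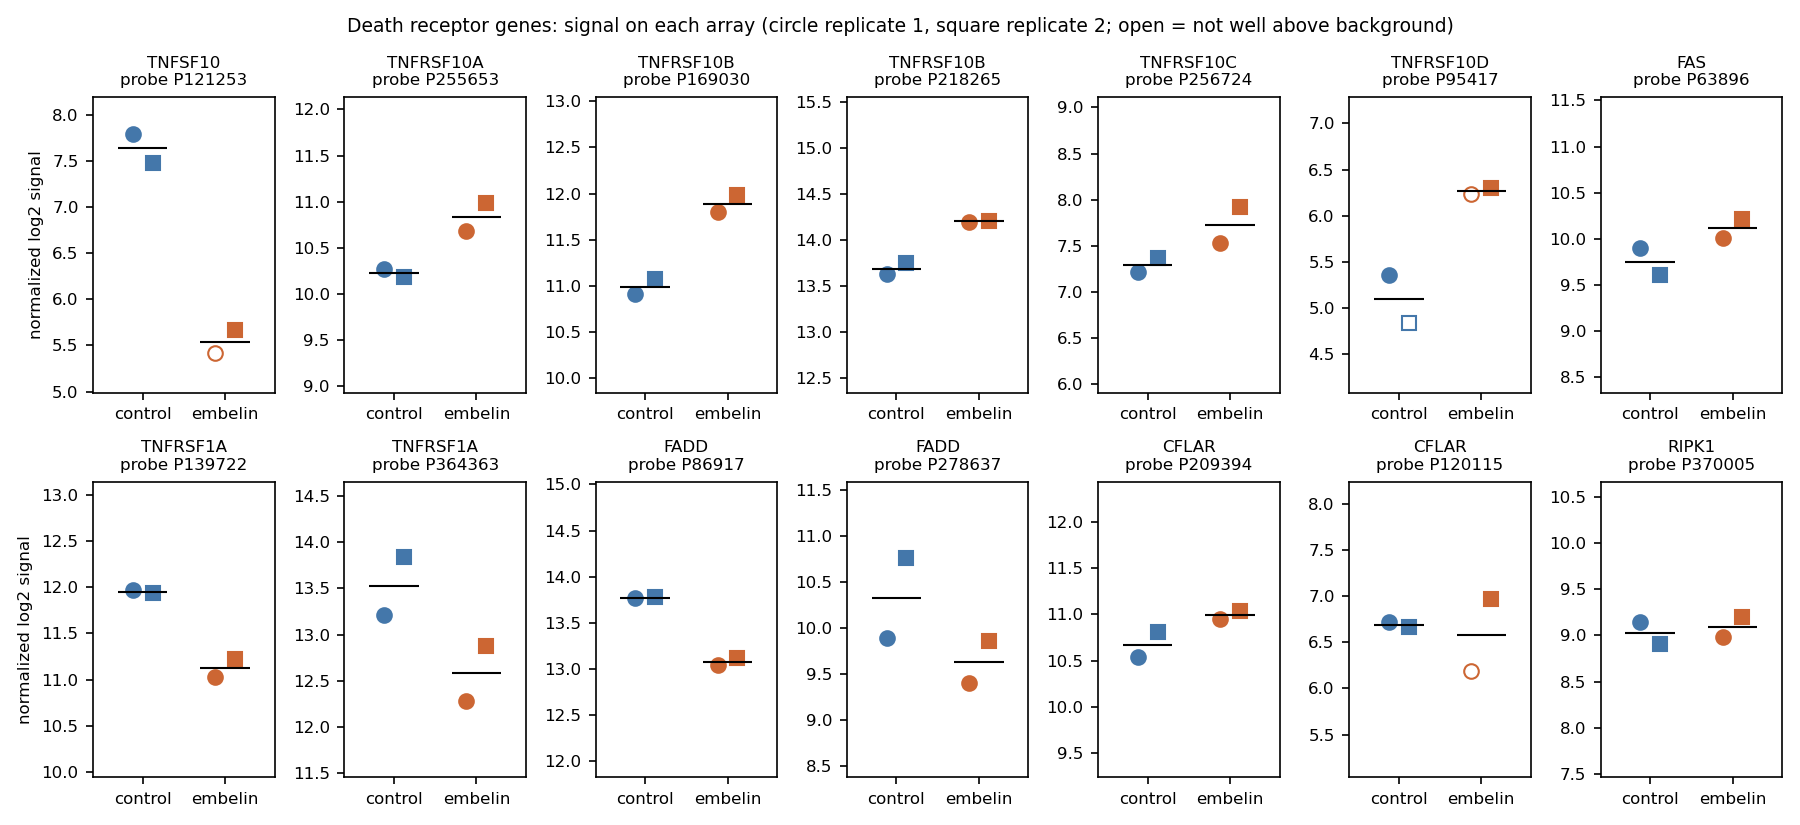
Normalized log2 signal (vertical axis, every panel spanning the same range) of each of the 14 probes on the 2 control arrays (blue) and the 2 embelin arrays (orange), with replicate 1 as a circle, replicate 2 as a square, group means as lines, and open symbols for arrays on which the probe was not well above background. TNFSF10 falls from 7.80 and 7.47 to 5.41 and 5.67, and the TRAIL receptor probes sit higher with embelin, whereas both probes of TNFRSF1A and of FADD sit lower.

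TNFSF10 encodes TRAIL, the ligand that binds the 4 TNFRSF10 receptors. Its normalized log2 signal was 7.80 on control 1 and 7.47 on control 2, and 5.41 on embelin 1 and 5.67 on embelin 2. Both embelin arrays lay below both controls, and the gap between the groups was several times the spread within either of them. The means were 7.63 ± 0.23 in control and 5.54 ± 0.18 with embelin (SD, n = 2). TNFSF10 thus fell by 2.09 on the log2 scale (SE 0.21, 95% interval -2.68 to -1.51), which is 4.27-fold, with adjusted p = 0.0440 by limma. The probe passed the filter only through the controls, where it is high, and it was not well above background on embelin 1, so that neither the size nor the p of the fall is exact. The difference was -2.13 between the arrays of lower background (control 1 and embelin 2) and -2.06 between those of higher background (control 2 and embelin 1).

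The low signal of TNFSF10 with embelin lay near the limit of the arrays. It was well above background on both controls and on 1 of 2 embelin arrays, and 5.41 on embelin 1 is below 6.04, the lowest log2 signal that was called well above background there. In RNA pooled over a culture, fewer cells with TNFSF10 RNA and less of it per cell cannot be told apart. With normexp background correction, run here with a constant of 50 added to every signal, the fall was 1.20 on the log2 scale. Its adjusted p by limma was 0.0376. With any single array left out every call on the array was lost, that of TNFSF10 among them, so the loss is not particular to this gene. The log2 difference of TNFSF10 stayed between -2.25 and -1.93. With the replicate number as a block the adjusted p of TNFSF10 was 0.0747, and with the position on the slide as a covariate it was 0.152. Neither of these settings called any probe.

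The receptors that pass on the TRAIL signal read higher with embelin, unlike their ligand, but no probe of them passed adjustment. TNFRSF10B (DR5) is known as a target of CHOP, the product of DDIT3. Its probe P169030 read 10.91 and 11.07 on the controls and 11.80 and 11.98 on the embelin arrays. Its probe P218265 read 13.63 and 13.75 on the controls and 14.20 and 14.21 on the embelin arrays. With both probes every embelin array lay above every control array. Probe P169030 differed by 0.90 on the log2 scale (SE 0.18, 95% interval 0.42 to 1.38), a 1.86-fold difference, and the adjusted p was 0.105. For P218265 it was 0.51 (SE 0.16, 95% interval 0.07 to 0.96), a 1.43-fold difference, with adjusted p = 0.212. The unadjusted p of the probes was 0.00644 and 0.0321. Both pairs of arrays with like background showed the same sign, with 1.07 and 0.73 for P169030 and 0.58 and 0.45 for P218265.

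TNFRSF10A (DR4) is the other TRAIL receptor with a death domain. Its signal was 10.27 and 10.19 on the controls and 10.68 and 10.98 on the embelin arrays, without overlap. On the log2 scale the difference was 0.60 (SE 0.19, 95% interval 0.07 to 1.12), a 1.51-fold difference, with unadjusted p = 0.0336 and adjusted p = 0.217. The TNFRSF10A probe and the TNFRSF10B probe P169030 were the most alike of all pairs of member probes from different genes, with 36 identical bases in an aligned stretch of 44. Every other such pair shared at most 19, and whether either probe picks up RNA of the other gene was not tested.

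The decoys TNFRSF10C (DcR1) and TNFRSF10D (DcR2) gave weaker readings. TNFRSF10C, a decoy held in the membrane by a lipid anchor, read 7.22 and 7.37 on the controls and 7.53 and 7.92 on the embelin arrays. The embelin arrays lay above the controls, but the difference of 0.43 (SE 0.21, 95% interval -0.16 to 1.02) was not past any threshold, with adjusted p = 0.378. It was 0.70 between the arrays of lower background and 0.16 between those of higher background.

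TNFRSF10D, a decoy with a truncated death domain, read 5.35 and 4.84 on the controls and 6.23 and 6.30 on the embelin arrays. It was well above background on 1 array of each group (control 1 and embelin 2), so it did not enter the test, and on those 2 arrays the difference was 0.95. The mean difference was 1.17. With no filter on dim probes its unadjusted p was 0.0236 and its adjusted p 0.666. The 4 receptor genes lie on chromosome 8 with no other protein-coding gene between them, in the RefSeq order TNFRSF10B, TNFRSF10C, TNFRSF10D and TNFRSF10A. All 5 of their probes had higher mean signals with embelin, and 0 of the 4 tested passed adjustment.

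FAS (CD95) is the receptor of FAS ligand. Its signal was 9.90 and 9.61 on the controls and 10.01 and 10.22 on the embelin arrays. The lower embelin array was only just above the higher control, and the groups did not overlap. Its difference in log2 was 0.36 (SE 0.20, 95% interval -0.19 to 0.91), with adjusted p = 0.419, so that the interval holds both no difference and a signal nearly 2-fold higher. It was 0.32 and 0.40 within the pairs of lower and higher background.

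**Figure D2:**
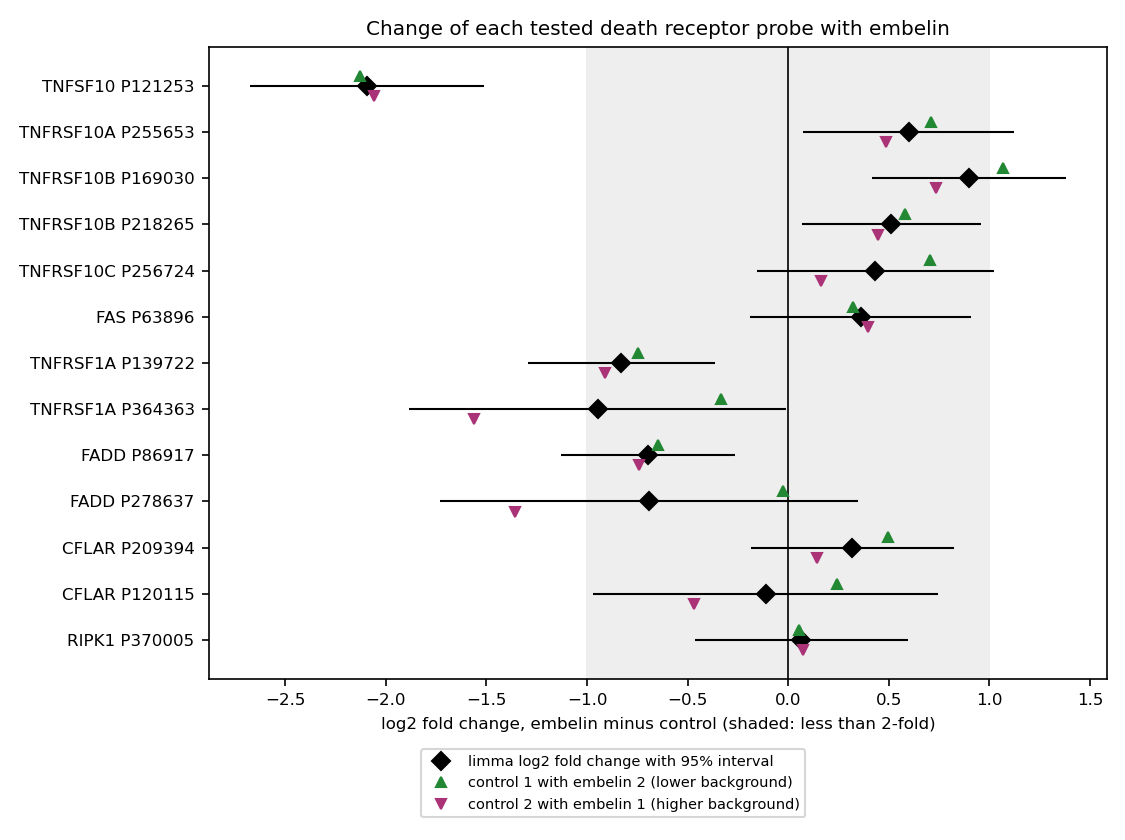
Log2 fold change (embelin minus control, horizontal axis) of each of the 13 tested member probes, with limma's estimate and 95% interval in black, the difference between the arrays of lower background as upward triangles and of higher background as downward triangles, and the range under 2-fold shaded. TNFSF10 at -2.09 is the only interval wholly outside the shaded range, the TNFRSF10A and TNFRSF10B intervals lie above 0 and those of TNFRSF1A and of FADD P86917 below it.

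TNFRSF1A (TNFR1), the main receptor of TNF, had lower signals with embelin at both of its probes, and neither passed adjustment. Probe P139722 read 11.97 and 11.94 on the controls and 11.03 and 11.22 on the embelin arrays. The controls differed little and both embelin arrays lay well below them. The log2 difference was -0.83 (SE 0.17), a 1.78-fold lower signal, with unadjusted p = 0.00755 and adjusted p = 0.113. Probe P364363 read 13.21 and 13.84 on the controls and 12.28 and 12.88 on the embelin arrays. Here the groups did not overlap, but the replicates of each group lay far apart. The log2 difference was -0.95 (SE 0.34, 95% interval -1.88 to -0.01), with adjusted p = 0.258. It was -0.33 between the arrays of lower background and -1.56 between those of higher background, but -0.94 between the arrays numbered 1 and -0.96 between those numbered 2. At P139722 it was -0.75 and -0.91 in the pairs of lower and higher background.

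FADD, the adaptor that joins the receptors to caspase-8, likewise read lower with embelin at both probes, and neither passed adjustment. Probe P86917 read 13.76 and 13.78 on the controls and 13.04 and 13.11 on the embelin arrays, with replicates close together and a clear gap between groups. The log2 difference was -0.70 (SE 0.16, 95% interval -1.13 to -0.26), a 1.62-fold lower signal, with unadjusted p = 0.0109 and adjusted p = 0.131. Probe P278637 read 9.89 and 10.76 on the controls and 9.41 and 9.86 on the embelin arrays. Embelin 2 lay only just below control 1. The mean difference was nearly the same, -0.69, but with SE 0.38 and adjusted p = 0.415, and it was -1.36 between the arrays of higher background and -0.02 between those of lower background. Between the arrays numbered 1 it was -0.48 and between those numbered 2 it was -0.90. With any single array left out it ranged from -1.13 to -0.25.

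CFLAR (c-FLIP), the inhibitor of caspase-8 at the receptor, gave no clear direction. Probe P209394 read 10.54 and 10.80 on the controls and 10.95 and 11.04 on the embelin arrays. The groups did not overlap, and the log2 difference was 0.32 (SE 0.18, 95% interval -0.18 to 0.82) with adjusted p = 0.433. Probe P120115 read 6.72 and 6.66 on the controls and 6.19 and 6.97 on the embelin arrays, on either side of the controls. Its difference was -0.11 (SE 0.31) with adjusted p = 0.893, it was not well above background on embelin 1, and its sign turned to 0.27 without that array. The probes of CFLAR may read different transcripts of the gene, which the files do not settle.

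RIPK1, the kinase of the TNF receptor complex, read 9.15 and 8.91 on the controls and 8.98 and 9.20 on the embelin arrays. The groups overlapped. Their log2 difference was 0.07 (SE 0.19, 95% interval -0.46 to 0.59) with adjusted p = 0.899, so that the interval leaves out a 2-fold difference in either direction.

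The size of most members moved with the processing and with the array left out. TNFRSF10A and FAS reached both ends of their ranges below only with 1 array left out. The alternatives included other background corrections and normalizations and each array left out in turn. Over them the log2 difference ranged from 0.45 to 0.75 for TNFRSF10A and from 0.22 to 0.50 for FAS. It ranged from -0.93 to -0.73 for TNFRSF1A P139722 and from -0.75 to -0.66 for FADD P86917. TNFRSF10B P169030 ranged from 0.81 to 0.99 and P218265 from 0.44 to 0.57, apart from the mean over both probes, which was 0.71. TNFRSF10C ranged from 0.23 to 0.63, TNFRSF1A P364363 from -1.26 to -0.63 and FADD P278637 from -1.13 to -0.25. The values of TNFSF10 ranged from -2.25 to -1.20, where the smallest fall was that with normexp, and those of CFLAR P209394 from 0.10, with the mean over both CFLAR probes, to 0.45. Those of CFLAR P120115 (-0.50 to 0.27) and RIPK1 (-0.053 to 0.18) changed sign, for RIPK1 only with 1 array left out. When limma's prior was fitted with a trend and robustly, 4 member probes were called, TNFSF10 (adjusted p = 0.0359), TNFRSF10B P169030 (0.0390), TNFRSF1A P139722 (0.0431) and FADD P86917 (0.0440). That fit called more probes everywhere, 730 higher and 467 lower of all 26145 tested, against 299 and 95 in the main fit.

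**Figure D3:**
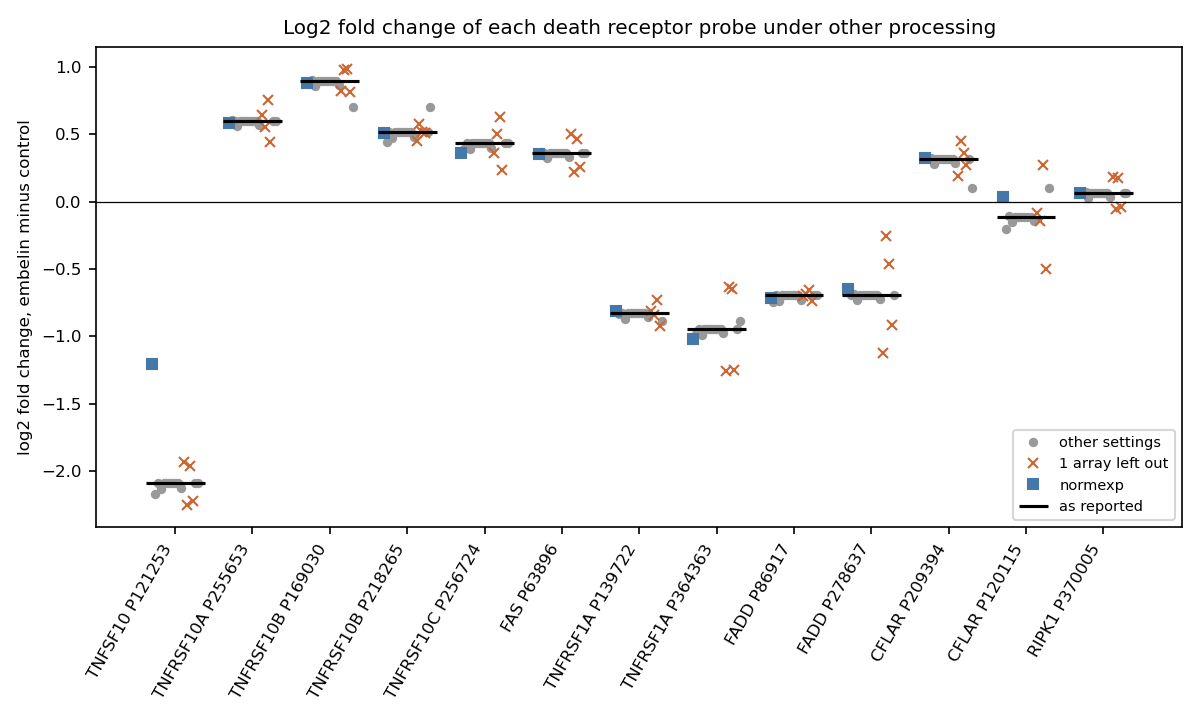
Log2 fold change (embelin minus control, vertical axis) of each tested member probe as reported (black line), with normexp background correction (blue squares), with 1 array left out (orange crosses) and under the other settings (grey points). TNFSF10 moves to -1.20 with normexp and stays between -2.25 and -1.93 elsewhere, and among the 13 probes CFLAR P120115 and RIPK1 cross 0.

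The wider pathway was read from 5 lists with 66 genes and 98 probes, of which 73 probes of 56 genes passed the filter. Of these 73, 2 rose after adjustment (TRAF1 and DDIT3) and 0 fell, where 1.14% and 0.363% of all probes were called. At 2-fold with unadjusted p under 0.05, 10 were higher and 0 lower, where 4.71% and 3.43% of all probes were. TRAF1 and FOXO3 each entered these 10 with 2 probes. The TNF probe and the TRAF1 probe P89891 among them passed the filter only through the embelin group, where they are high. The lists were chosen with earlier results of these data known, so these counts describe the lists and test nothing. At unadjusted p under 0.05 alone 17 were higher and 6 lower, where 9.36% and 9.77% of all probes were. With control 1, control 2, embelin 1 or embelin 2 left out, 0 were called after adjustment. The groups did not overlap for 26 higher and 20 lower probes, where 24% and 27.1% of all probes did not.

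Among 7 other ligands of the family, 4 had a probe that passed the filter, with a median log2 difference of -0.17, and 0 passed adjustment by limma (1 higher and 1 lower at unadjusted p under 0.05). TNF, the ligand of TNFRSF1A, read 5.37 and 5.40 on the controls and 6.63 and 6.69 on the embelin arrays. Its difference was 1.28 (SE 0.16) with adjusted p = 0.0546, and it was well above background on 1 of 2 controls. TNFSF14 (LIGHT) differed by -0.84 (adjusted p = 0.207) and LTB by -0.32 (adjusted p = 0.483). No probe for FASLG, the ligand of FAS, or for LTA or TNFSF15 passed the filter.

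Of 10 other death and decoy receptors, 5 were tested, with a median of 0.18 and 0 calls by limma (1 higher and 0 lower at unadjusted p under 0.05). TNFRSF12A, the receptor of TWEAK, read 13.93 and 14.47 on the controls and 15.03 and 15.83 on the embelin arrays. The groups did not overlap, and the difference was 1.23 (SE 0.37) with adjusted p = 0.199. LTBR differed by -0.29 (adjusted p = 0.658) and TNFRSF25 by 0.22 (adjusted p = 0.581). TNFRSF1B, the second TNF receptor, and NGFR, EDA2R, EDAR and TNFRSF11B did not pass the filter.

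The adaptors and the ubiquitin machinery of the receptor complex had 28 tested probes of 22 genes, with a median of 0.00, 1 call higher and 0 lower (8 and 2 at unadjusted p under 0.05). TRAF1, an adaptor known as an NF-kB target, read 7.58 and 7.61 on the controls and 9.08 and 9.20 on the embelin arrays at probe P216970. It rose by 1.55 (SE 0.16), which is 2.93-fold, with adjusted p = 0.0454. Its other probe differed by 2.04 (SE 0.40, adjusted p = 0.108) and was well above background on 1 of 2 controls. CYLD, a deubiquitinase, gave the largest difference of the list, 3.23, at probe P65996, which was well above background on 1 of 2 controls. That value rests on embelin 1, which read 9.39 against 5.64 on embelin 2, and the SE was 1.34 (adjusted p = 0.310), while the other CYLD probe differed by 0.43. TNFAIP3 (A20), an inhibitor of NF-kB, differed by 1.55 (SE 0.29, adjusted p = 0.0972). The rest of the genes with unadjusted p under 0.05 by limma lie outside the rule for naming and were chosen after their values were seen. Of these, BIRC3 (cIAP2) differed by 1.38 (adjusted p = 0.0560), RBCK1 by 0.92 (0.183) and TRADD by 0.68 (0.142). BIRC2 differed by 0.62 (adjusted p = 0.160) and TRAF6 by 0.48 (0.246). Lower were TRAF2 by -0.68 (adjusted p = 0.140) and RNF31 (HOIP) by -0.71 (adjusted p = 0.126).

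Of the caspases and downstream effectors, 17 probes of 12 genes were tested, with a median of -0.01 and 0 calls by limma (0 higher and 2 lower at unadjusted p under 0.05). XIAP, the caspase inhibitor, differed by 0.98 (SE 0.48, adjusted p = 0.371), with 8.71 and 7.61 on the controls and 9.48 and 8.80 on the embelin arrays. CASP10, an initiator caspase recruited by FADD, differed by -0.80 and -0.79 at its 2 tested probes (adjusted p = 0.165 and 0.223), with both embelin arrays below both controls at each. The probes of CASP8, the caspase that FADD recruits, gave 0.16 and -0.40 (adjusted p = 0.901 and 0.290), and the probe for RIPK3 was not well above background on any array. CASP8 and RIPK3 too were chosen after their values were seen.

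Of the transcription factors known to act on the member genes, 18 probes of 13 genes were tested, with a median of -0.02, 1 call higher and 0 lower (7 and 1 at unadjusted p under 0.05). DDIT3 (CHOP), which binds the TNFRSF10B gene under stress of the endoplasmic reticulum, read 7.19 and 7.28 on the controls and 11.62 and 11.39 on the embelin arrays. It rose by 4.27 (SE 0.18), which is 19.3-fold, with adjusted p = 0.0280, and no tested probe had a lower adjusted p. FOXO3, a factor known to act on TNFSF10, differed by 1.20 and 1.06 at its 2 probes (adjusted p = 0.208 and 0.212), and RELA, a subunit of NF-kB, by 1.06 (adjusted p = 0.0989).

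**Figure D4:**
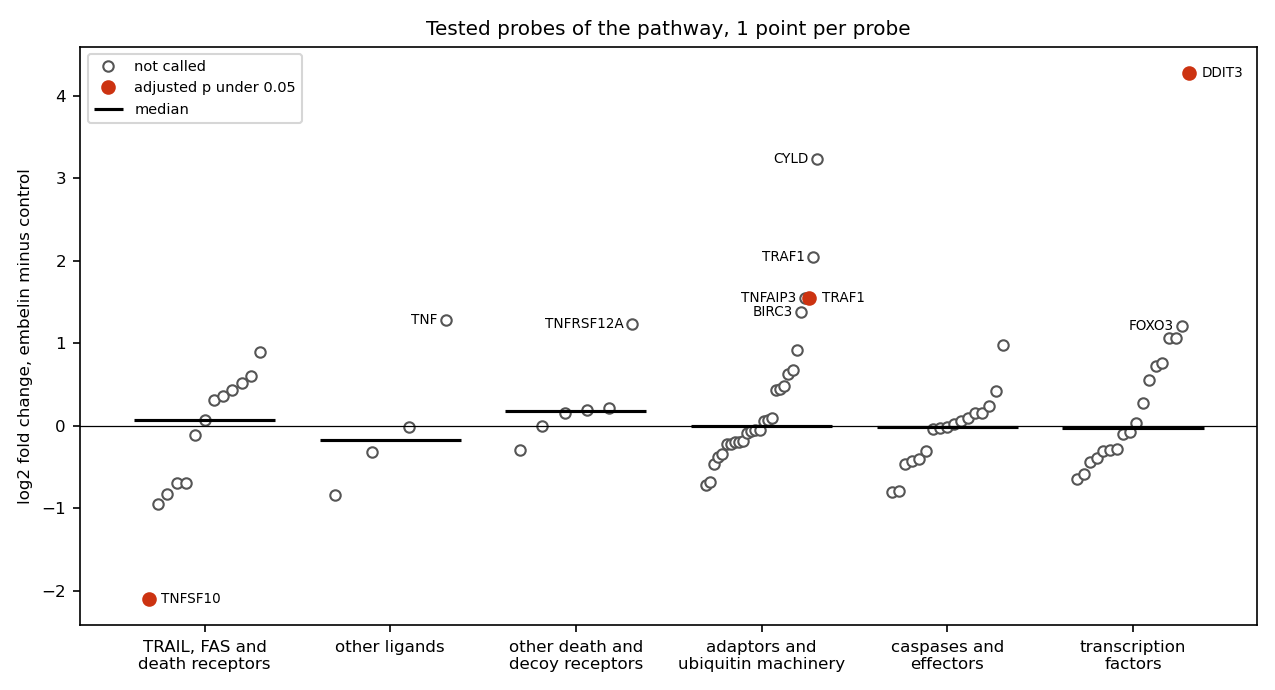
Log2 fold change (embelin minus control, vertical axis) of every tested probe of the 10 genes (leftmost column) and of the 5 pathway lists, with 1 point per probe, the median of each list as a line, and probes with adjusted p under 0.05 filled. DDIT3 at 4.27 and TRAF1 at 1.55 are the filled points above 0 and TNFSF10 at -2.09 is the only filled point below it, while all the medians lie between -0.17 and 0.18.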

How the data were processed

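RNA of 2 control and 2 embelin samples was measured on single-colour Agilent arrays. The authors deposited scanner intensities made with version 10.7.3.1 of Agilent's Feature Extraction, corrected for background and not normalized between arrays. Their table of probe values, on the same intensity scale, served only as an alternative. Spots marked as outliers were left out and spots of a probe averaged. The 75th percentile of each array, over 49320 probes with a value on every array, was shifted to a common value, as the study's methods state, values were floored at 1, and log2 was taken of the deposited intensity. Kept were 26146 of 50238 probes, those that in control or in embelin passed the scanner's test against background on both arrays, and 26145 had an estimate in both groups. Each probe was tested with lmFit and eBayes of limma 3.58.1 (R 4.3.3), with Benjamini-Hochberg adjustment over all tested probes. The fit was tested on simulated data. The alternatives were normexp (offset 50), quantile normalization, median centring, the deposited table, other filters, eBayes with trend and robust, the methods' t-test, blocks for the replicate number and for background, slide position, 1 probe or a mean per gene and each array left out. The 75th percentile over all spots was added after the data were seen. Motifs were searched in Python 3.11.15 and probes aligned with Biopython 1.88.

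The members and the gene lists were chosen with earlier results of these data known. Named were every member probe, each listed gene called after adjustment and, per list, the 3 genes with the largest absolute difference at a kept probe. Some genes that this covers are counted in their lists but not reported here by name. Precision is limited by there being 2 arrays per group. Sequences of the TNFRSF10 receptor genes and proteins are not printed here.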

Additional observations from a re-analysis of the deposited data

How the results depend on the processing

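Of all probes tested, 299 were called higher and 95 lower after adjustment. The counts were 574 and 273 with normexp, 163 and 31 with quantile normalization, 132 and 26 with the deposited table, 552 and 345 where all 4 arrays had to be well above background, 730 and 467 with trend and robust, 0 and 1 by the methods' t-test, and 0 and 0 with no filter, a block for array background or slide position as a covariate. With the brightest probe of each gene 151 were lower. With any 1 array left out the counts were 0 and 0. The labels do not say whether the numbers of the replicates pair the samples. The correlation of deviations was 0.214 between same-numbered samples and -0.214 between crossed numbers. With only 2 pairs the second value is fixed by the first, so the correlation cannot settle the pairing. With the replicate number as a block 0 were called higher and 0 lower, 0 of the members and 0 of the pathway lists.

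Of the member probes, 1 was called. The count was 4 with trend and robust, and 0 with quantile normalization, the deposited table, no filter, the filter on all 4 arrays, the methods' t-test, background block, slide position and the 75th percentile over all spots, and 0 with any 1 array left out. TNFSF10 kept its direction under each of its 17 alternatives and lost its call under 12, with adjusted p from 0.0359 to 0.5005. The filter on all 4 arrays removes it by construction. Past 2-fold with unadjusted p under 0.05 were 2 members with normexp, 2 with no filter, 0 with the filter on all 4 arrays, and 1 to 3 with 1 array left out, 3 without control 1 and 2 without embelin 2.

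In the pathway lists 2 probes were called higher. The count was 1 with quantile normalization, the deposited table, the 75th percentile over all spots and the mean over probes, 4 with the brightest probe, 6 with trend and robust, and 0 with no filter, the methods' t-test, background block and slide position, and 0 with any 1 array left out.

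CFLAR P120115 changed sign with normexp (0.032), with the mean over probes (0.10) and without embelin 1 (0.27), and ranged from -0.50 to 0.27 with 1 array left out. RIPK1 changed sign without control 2 (-0.053) and without embelin 2 (-0.044), and ranged from -0.053 to 0.18 with 1 array left out. The causes were not tested. Where a group kept 1 array, its spread was taken from the other group. TNFSF10, TNFRSF10D and CFLAR P120115 were not well above background on embelin 1, which limits their values.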
